A study of Arabidopsis thaliana with 6 samples.

Results

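MSRB6 (AT4G04840) encodes a methionine sulfoxide reductase of the B type and was read by probe set 255298_at, the 1 member described here among 22746 probe sets. Each probe set combines several short probes for a transcript into 1 intensity. MSRB6 was chosen by its measured change in these same arrays, where its fall after paclobutrazol was among the largest of genes with a symbol, so its own levels, changes and ranks are given as a description, with no test.

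The study measured messenger RNA in whole rosettes of Arabidopsis thaliana Col-0 plants on 6 arrays. All plants, controls included, carried 35S:HF-RPL18B, a tagged ribosomal protein gene driven by the broadly active 35S promoter, grew in soil with 16 h of light a day, and were collected at day 27 according to the titles, although the source label says day 25. The 2 control arrays came from untreated plants. The 2 PBZ arrays came from plants whose pots received 0.5 mg of paclobutrazol at day 14 (10 mL at 50 mg/L), which blocks an early step of gibberellin synthesis. The 2 GA arrays came from plants that received a spray of GA3, an active gibberellin, on alternate days (1 mL per plant at 50 µM). No mock watering or mock spray is described for the controls. The hybridised RNA is labelled as total RNA. The protocol also covers RNA pulled down with the tagged ribosomes, so that label alone decides between them.

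Oxidants turn methionine in proteins, and free methionine, into methionine sulfoxide, which exists in 2 forms, S and R, that differ at the sulfur atom. Methionine sulfoxide reductases of the A type (MSRA) reduce the S form and those of the B type (MSRB) the R form, and thioredoxins or, for some plastid members, glutaredoxins return the enzyme to its reduced state. In leaves these enzymes are known for protein repair under light, cold and oxidative stress. Gibberellins are growth hormones that act by removing the DELLA repressors of growth.

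The arrays were alike in brightness, with median intensities from 32.4 to 33.9, and log2 values correlated across probe sets at 0.981 to 0.988 within groups and 0.967 to 0.986 between groups. The leaf marker RCA, the activase of Rubisco and the 1 of 12 listed leaf markers with a probe set of its own, lay between 3858 and 4741 in all 6 arrays. The 2 of 8 listed root markers measured, EXPA7 and EXPA18, summed to 15.4 and 19.5 in control, 14.9 and 27.8 in PBZ and 12.4 and 23.6 in GA arrays. Of 8 listed flower markers 0 had a probe set naming that gene alone, so the part of any floral tissue was not tested. In whole rosettes, fewer cells of a type and less RNA per cell cannot be told apart.

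MSRB6 was low in PBZ rosettes and high in both other groups. Its intensity was 464.8 and 448.3 in the control arrays, 103.5 and 104 in the PBZ arrays, and 504.1 and 504.8 in the GA arrays. Every PBZ array was far below every other array, and the replicates of a group lay close together. The group means were 457 ± 11.7 in control, 104 ± 0.35 in PBZ and 504 ± 0.49 in GA rosettes (SD, n = 2 each). The PBZ mean was thus 22.7% of the control mean and the GA mean 110% of it.

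**Figure D1:**
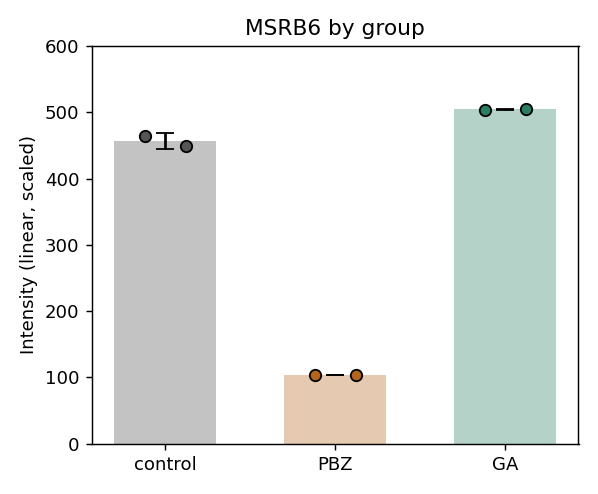
Linear intensity of MSRB6 in each array (points), with the group mean (bar) and SD (line, n = 2). Both PBZ arrays sit near 104, while the control and GA arrays sit between 448.3 and 504.8.

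The order of the levels was PBZ, then control, then GA. The step from PBZ to control was the large one: each control array was between 4.31 and 4.49 times as bright as a PBZ array, whichever arrays are paired. Each GA array was between 4.85 and 4.88 times as bright as a PBZ array. The step from control to GA was small, with 39.3 intensity units between the brighter control array and the dimmer GA array, against 16.5 units between the control arrays. The groups do not overlap in any of the comparisons, which holds for many probe sets with 2 arrays a group: 41.7% of all probe sets in PBZ against control, 39% in GA against control and 47.5% in GA against PBZ.

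On the scale of log2(intensity + 10), which was used for all fitted changes, MSRB6 had a log2 fold change of -2.04 in PBZ against control (SE 0.11), a 4.10-fold lower value. In GA against PBZ it was 2.18 (SE 0.11), 4.52-fold higher, and in GA against control 0.14 (SE 0.11), 1.10-fold higher. In this fit the difference between GA and control was therefore close to its SE, while the changes against PBZ were many times larger. The PBZ arrays serve 2 of these comparisons and the control arrays also serve 2, so the comparisons are not independent of each other. The SE comes from a fit across all probe sets that draws each gene's spread toward that of the others.

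The replicates of MSRB6 agreed more closely than those of most probe sets. Its residual SD on the log2 scale was 0.021, against a median of 0.168 over all probe sets, and 0.906% of probe sets had a smaller one. Among the 1692 probe sets within 0.5 log2 units of its mean brightness the median was 0.117, and 0.709% were tighter. The gap between replicates was 3.61% of the mean in control, 0.482% in PBZ and 0.139% in GA. The SE of 0.11 given above is thus set mainly by the spread of other probe sets, not by that of MSRB6.

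Among the 22746 probe sets, the fall of MSRB6 in PBZ against control was the 13th largest. It was the 7th largest among the 13513 that name 1 gene and the 3rd among the 1580 whose gene has a symbol of its own. Just ahead of it among genes with a symbol stood BZIP61, a bZIP transcription factor, with a log2 fold change of -2.44, and EXPA8, an expansin that loosens cell walls, with -3.06. Just behind it came the thionin gene THI2.2 at -1.60 and the wax ester synthase gene WSD1 at -1.38. MSRB6 had a smaller SE than each of these 4 genes, whose SE ran from 0.121 to 0.206.

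In GA against PBZ the rise of MSRB6 was the 44th largest of all probe sets and the 8th among genes with a symbol. It stood between WRKY53, a stress-related transcription factor, at 2.27 and EXLA2, an expansin-like gene, at 1.96. In GA against control its rank was 4965, and 50.8% of probe sets had a smaller change in either direction. The central 90% of probe sets spanned -0.484 to 0.505 in PBZ against control, -0.400 to 0.442 in GA against control and -0.550 to 0.586 in GA against PBZ.

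**Figure D2:**
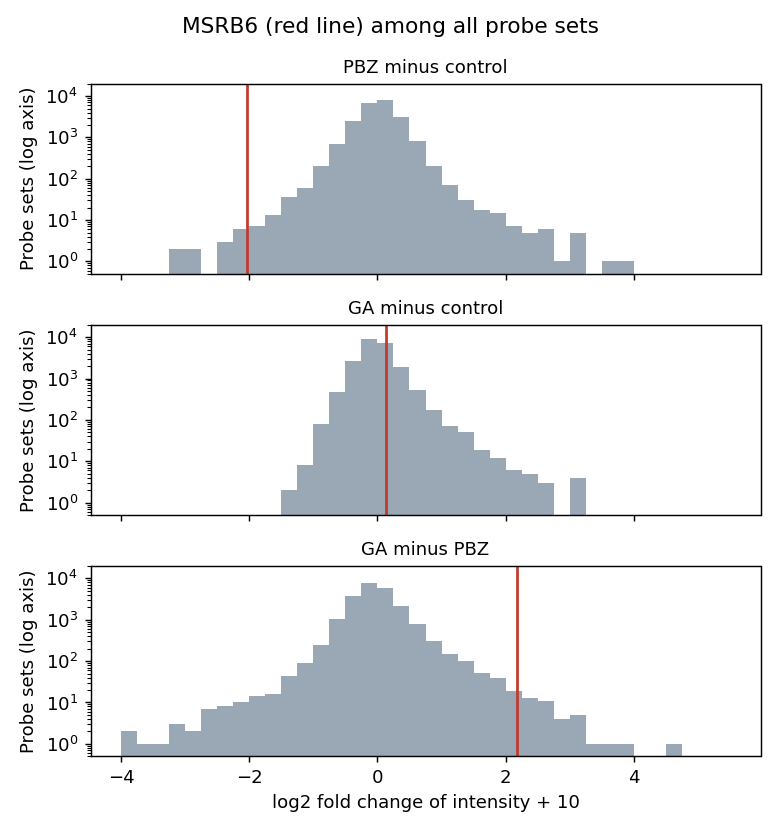
Number of probe sets (log axis) by log2 fold change in each comparison, with MSRB6 as a red line. The line lies at -2.04 in PBZ against control, at 0.14 in GA against control and at 2.18 in GA against PBZ.

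The Arabidopsis gene table lists 9 MSRB genes, and 4 of them had a probe set naming that gene alone: MSRB6, MSRB3, MSRB5 and MSRB9. The other 5, MSRB1, MSRB2, MSRB4, MSRB7 and MSRB8, were not analysed here. Levels of different probe sets cannot be set against each other, so only the pattern across groups is compared. None of the other 3 passed the test in any comparison (limma with Benjamini-Hochberg adjustment over all probe sets, adjusted p under 0.05), against a background of 0.514% of probe sets in PBZ against control, 0% in GA against control and 2.97% in GA against PBZ. At an unadjusted limma p under 0.05 there was 1 of 3, MSRB9, in PBZ against control, beside 13.7% of all probe sets, and 0 in GA against control and GA against PBZ, beside 8.49% and 18%.

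MSRB3 (AT4G04800), whose protein lies in the endoplasmic reticulum, had 94.7 and 139 in control, 112.9 and 116.5 in PBZ and 130.5 and 140 in GA arrays. The control arrays spanned the PBZ arrays, and the log2 fold change in PBZ against control was -0.00248 (SE 0.19, limma adjusted p = 0.999). In GA against control and GA against PBZ it was 0.22 in each (SE 0.19, adjusted p = 0.846 and 0.607).

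MSRB5 (AT4G04830), a close relative of MSRB6, had 285.8 and 369.6 in control, 373.3 and 346.7 in PBZ and 356.3 and 401.1 in GA arrays. The groups overlapped in all comparisons. Its log2 fold change was 0.14 in PBZ against control, the opposite sign to MSRB6, and 0.21 in GA against control and 0.07 in GA against PBZ (SE 0.16, limma adjusted p = 0.766, 0.816 and 0.881).

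MSRB9 (AT4G21850), another B-type reductase, was lowest in control, with 27.1 and 42.5, and had 62.4 and 58.9 in PBZ and 45.9 and 53.8 in GA arrays. The PBZ arrays were thus the brightest ones, where those of MSRB6 were the dimmest. The log2 fold change was 0.68 in PBZ against control (SE 0.19, limma adjusted p = 0.219), 0.44 in GA against control (adjusted p = 0.627) and -0.24 in GA against PBZ (adjusted p = 0.581).

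Of the 5 listed genes for A-type reductases, MSRA5 (AT2G18030) had a probe set of its own. It had 122 and 132.9 in control, 71.6 and 67.4 in PBZ and 121.4 and 109.2 in GA arrays. Like MSRB6 it was dimmest in both PBZ arrays, at a smaller size. Its log2 fold change was -0.79 in PBZ against control (SE 0.13) and 0.66 in GA against PBZ (SE 0.13), and it did not pass over all probe sets (limma adjusted p = 0.0788 and 0.0563). In GA against control it was -0.13 (SE 0.13, adjusted p = 0.867), with the GA arrays just below the control arrays. MSRA5 passed in 3 of 16 alternative settings for PBZ against control (adjusted p from 0.0130 to 0.322) and in 4 of 16 for GA against PBZ (0.0142 to 0.283).

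**Figure D3:**
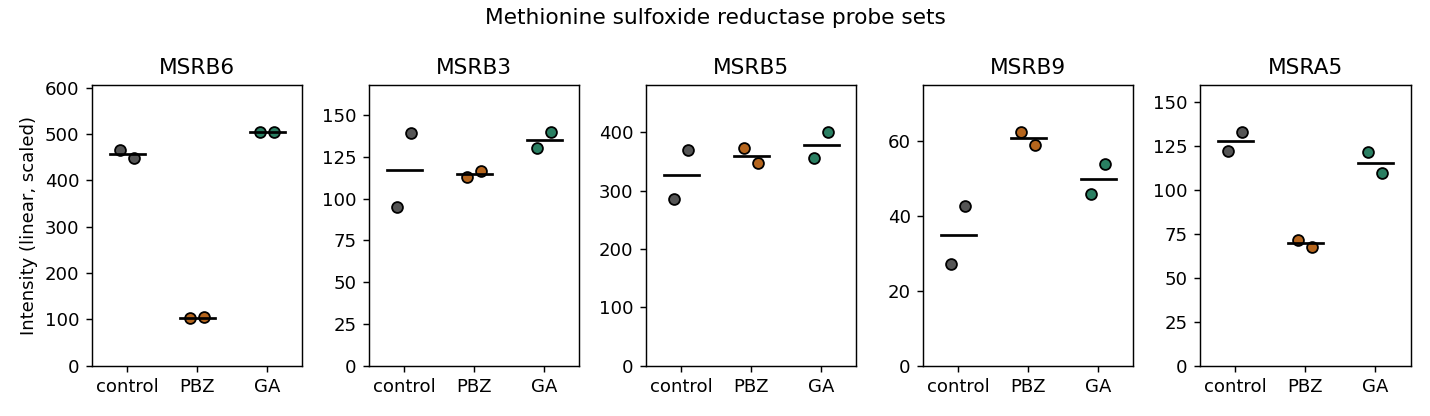
Linear intensity of the 5 methionine sulfoxide reductase probe sets in each array (points) with group means (lines, n = 2), each panel on its own axis from 0. MSRB6 and MSRA5 are lowest in the PBZ arrays, MSRB3 and MSRB5 have overlapping PBZ and control arrays, and MSRB9 is highest in the PBZ arrays.

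MSRB3, MSRB4 and MSRB5 lie within the 5 genes on one side of MSRB6 in the gene table, with a pseudogene and a noncoding RNA gene among them. Of the 5 genes on each side, 4 had a probe set naming that gene alone: MSRB3, the pseudogene AT4G04820, MSRB5 and DER2.2. DER2.2 (AT4G04860), of the Derlin family linked to protein disposal from the endoplasmic reticulum, had 100.4 and 126 in control, 126.3 and 134.4 in PBZ and 101.7 and 109.7 in GA arrays. Its PBZ arrays were slightly above the others, with a log2 fold change of 0.20 against control (SE 0.15, limma adjusted p = 0.624). The probe set of AT4G04820 was dim in all arrays, with intensities from 0.7 to 8.2, and is of a type that can bind related sequences. None of these 4 fell in PBZ rosettes by the test.

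The pathway was described from 8 lists: the MSRB and MSRA families above, their electron donors, other enzymes that handle peroxides, and the enzymes of methionine metabolism. Without MSRB6 the lists held 99 genes, of which 28 had a probe set of their own, so the measured genes need not represent their lists. In PBZ against control 0 of 28 passed (limma, adjusted p under 0.05), beside 0.514% of all probe sets. In GA against control 0 passed, beside 0%, and in GA against PBZ 0 passed, beside 2.97%. At an unadjusted limma p under 0.05 there were 4, 2 and 6 of 28, beside 13.7%, 8.49% and 18% of all probe sets. The 4 in PBZ against control were MSRB9 and MSRA5, described above, and TRXF2 and MGL. The median log2 fold changes of the 28 were 0.0648, 0.0467 and 0.0556, and those of all probe sets 0.0252, -0.0213 and -0.0468, in the same order.

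Thioredoxins, small proteins that hand electrons to reductases, had 7 of 21 genes measured. Their log2 fold changes ran from -0.342 to 0.237 in PBZ against control and from -0.259 to 0.246 in GA against PBZ. TRXF2 (AT5G16400), a plastid thioredoxin, had the smallest p among them, with 527.1 and 571.4 in control, 448.7 and 413.8 in PBZ and 487.7 and 478.3 in GA arrays. Its PBZ arrays were the dimmest, as for MSRB6, with a log2 fold change of -0.34 against control (SE 0.12, limma adjusted p = 0.306). In that comparison TRXM2, TRXY1, TRXO1 and TRXO2 had the opposite sign, with 0.195, 0.214, 0.152 and 0.237. TRXX and TRXY2 had -0.139 and -0.186.

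Of the 6 listed thioredoxin reductase genes 2 were measured. NTRC (AT2G41680), a plastid protein that joins a reductase with a thioredoxin, had a log2 fold change of 0.29 in GA against PBZ (SE 0.15, adjusted p = 0.401). Its 340.3 and 340.5 in control lay within the spread of the PBZ arrays, 343.9 and 277.9. The other measured gene, FTRB (AT2G04700), had 1501.3 and 1477.7 in control, 1309.6 and 1250.3 in PBZ and 1462 and 1319 in GA arrays. Its PBZ arrays were the dimmest, as for MSRB6. The log2 fold change of FTRB was -0.22 in PBZ against control (SE 0.12, limma adjusted p = 0.507) and 0.12 in GA against PBZ (adjusted p = 0.681).

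Of 12 glutaredoxin genes 6 were measured. GRX480 (AT1G28480), a glutaredoxin known from salicylate and jasmonate signalling, had 10.6 and 23.8 in control, 27.7 and 22.3 in PBZ and 39 and 59.9 in GA arrays. It was brightest in the GA arrays, with a log2 fold change of 1.15 against control (SE 0.28, limma adjusted p = 0.310). The other 5 had log2 fold changes from 0.0105 to 0.0943 in that comparison.

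Of 9 peroxiredoxin genes 3 were measured, and of 22 genes for catalases, peroxidases and superoxide dismutases 2. PRXIIF (AT3G06050), the mitochondrial peroxiredoxin, had 449.6 and 411.6 in control, 500.5 and 546.4 in PBZ and 388.2 and 412.4 in GA arrays. SAPX (AT4G08390), a stromal ascorbate peroxidase, had 302.2 and 312 in control, 348.7 and 351.1 in PBZ and 288.4 and 269.1 in GA arrays. Both were brightest in PBZ, opposite to MSRB6, with log2 fold changes in GA against PBZ of -0.38 (SE 0.13, limma adjusted p = 0.197) and -0.32 (SE 0.12, adjusted p = 0.233). The other 3 measured genes, PRXIIE (AT3G52960), 2CPA (AT3G11630) and TAPX (AT1G77490), had values of the opposite sign and nearer to 0 in that comparison, 0.0466, 0.0648 and 0.0981, and -0.0182, -0.130 and -0.0578 in PBZ against control.

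Of 16 genes of methionine and S-adenosylmethionine metabolism 4 were measured: MGL, HMT1, MMT and CBL. HMT1 (AT3G25900) was brightest in the GA arrays. Its log2 fold change was 0.44 against control (SE 0.16, limma adjusted p = 0.509) and 0.40 against PBZ (adjusted p = 0.261). MMT (AT5G49810) and CBL (AT3G57050) had 0.0140 and -0.0373 in GA against PBZ, and 0.184 and 0.0912 in PBZ against control. MGL (AT1G64660), the methionine gamma-lyase that breaks methionine down, had 28.2 and 24.7 in control, 37.5 and 71 in PBZ and 17.9 and 12.8 in GA arrays. Its order, GA below control below PBZ, was the reverse of that of MSRB6, and its PBZ arrays lay far apart. The log2 fold change was -1.30 in GA against PBZ (SE 0.26, limma adjusted p = 0.0648) and 0.77 in PBZ against control (SE 0.26, adjusted p = 0.290). It passed in 2 of 16 alternative settings for GA against PBZ, with adjusted p from 0.00761 to 0.277.

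Genes whose profile was most like that of MSRB6 were taken from the 1579 other probe sets of 1 gene with a symbol. Likeness was the Euclidean distance over the 6 arrays between log2(intensity + 10) profiles, each centred on its own mean. The candidates had a median distance of 2.51, near the 2.44 of a profile that is flat over the arrays. The nearest 10 were THI2.2, WSD1, GSTU27, GSTU26, RALFL33, EXLA2, AR781, EXPA8, RALFL22 and PRA1.B6. Their distances ran from 0.519 to 1.19, small by selection. The Pearson correlation with MSRB6 over the 6 arrays ran from 0.901 to 0.996, with the arrays shared by all genes. Being chosen for likeness, all 10 had both PBZ arrays below the other 4. Nearer than the 10th were also 46 probe sets without a gene name and 34 whose gene has no symbol beyond its locus code.

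THI2.2 (AT5G36910), a thionin of the small antimicrobial proteins, had 88.1 and 98.9 in control, 22.5 and 25.8 in PBZ and 130.5 and 104.5 in GA arrays. It was the nearest, with the same order of groups as MSRB6. WSD1 (AT5G37300), which makes wax esters of the leaf surface, had 22.8 and 21.3 in control, 2.9 and 1.8 in PBZ and 29.9 and 30.9 in GA arrays. Its PBZ values lie under the added constant of 10, so its fold change depends on that constant.

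GSTU27 (AT3G43800) and GSTU26 (AT1G17190) encode glutathione transferases of the tau class, which attach glutathione to reactive compounds. GSTU27 had 506.3 and 510.9 in control, 226.6 and 257.7 in PBZ and 798.1 and 723.5 in GA arrays. GSTU26 had 79.8 and 69.8 in control, 33 and 21.5 in PBZ and 92.3 and 75.6 in GA arrays. Both were lowest in PBZ, and they differed above control: GSTU27 had a log2 fold change of 0.57 in GA against control (SE 0.13) and GSTU26 one of 0.14 (SE 0.19), close to the 0.14 of MSRB6.

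Of the other 6 near profiles, AR781 (AT2G26530) had log2 fold changes of -1.07 in PBZ against control and 0.83 in GA against control. RALFL33 (AT4G15800) and RALFL22, peptide signals of the rapid alkalinization family, and EXLA2 (AT4G38400) were less reduced in PBZ than MSRB6, with log2 fold changes of -1.13, -0.93 and -1.20. The PBZ mean of EXLA2, 8.10 ± 5.66, also lay under the added constant. All 3 stood higher in GA than in control, by 0.82, 0.75 and 0.77, where MSRB6 differed by 0.14. EXPA8 (AT2G40610) went the other way in that comparison, with -0.67 (SE 0.21), and had the deepest value in PBZ, -3.06. PRA1.B6 (AT5G07110), of a family of proteins in membrane traffic, had the highest correlation with MSRB6, 0.996, at a smaller size, with -0.99 in PBZ against control and 0.18 in GA against control. Over the 10 genes the log2 fold change in GA against control ran from -0.67 to 0.83, and 9 of 10 were above 0. Among all 22746 probe sets 10266 were above 0. The 10 genes were chosen for likeness over all 6 arrays, GA and control included, so their count is a description only.

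The 5 profiles nearest to the reverse of MSRB6 were those of ARPN, DFR, PYK10, JRG21 and UF3GT, each brightest in both PBZ arrays. ARPN (AT2G02850), a plantacyanin of the blue copper proteins, had 159.6 and 142.6 in control, 573.4 and 600.3 in PBZ and 81.9 and 109.1 in GA arrays. DFR (AT5G42800), an enzyme of anthocyanin synthesis, had 14.5 and 16.7 in control, 143.7 and 150.8 in PBZ and 20 and 17.8 in GA arrays. DFR had the lowest correlation with MSRB6, -0.992, and its GA and control levels lay close together, as those of MSRB6 did. PYK10 (AT3G09260), the main beta-glucosidase of ER bodies, JRG21 (AT3G55970), an oxygenase induced by jasmonate, and UF3GT (AT5G54060), a xylosyltransferase of anthocyanins, had log2 fold changes of 1.81, 2.03 and 2.15 in PBZ against control. JRG21 (0.5 in both control arrays) and UF3GT (3.9 and 13.8 in the GA arrays) had group means under the added constant, which therefore sets part of the size of their changes.

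**Figure D4:**
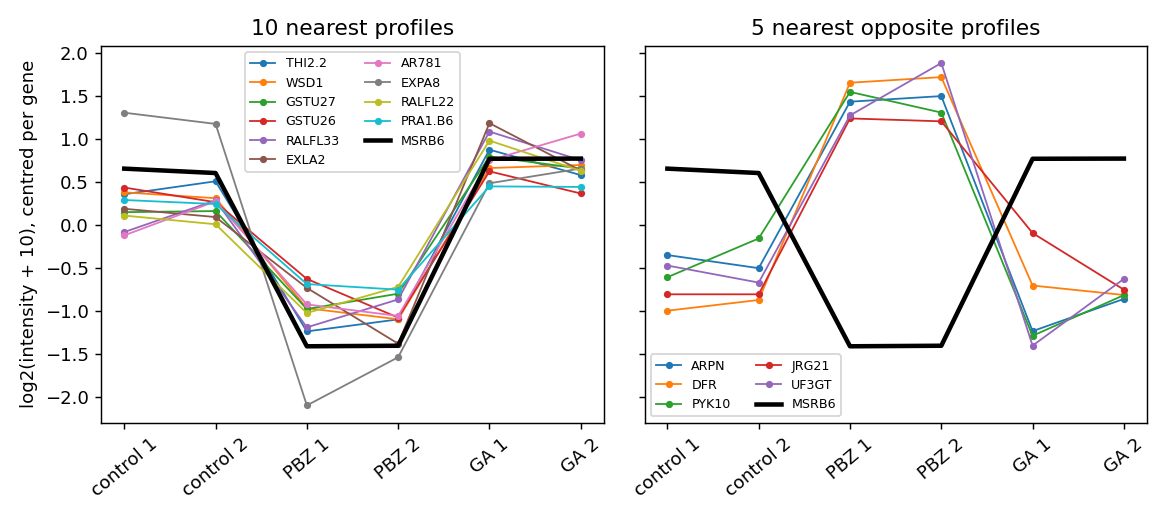
Profiles over the 6 arrays as log2(intensity + 10) centred on each gene's mean, for MSRB6 (black) with the 10 nearest genes (left) and the 5 nearest to its reverse (right). Lines join the arrays of a gene, and replicates have no order. All 10 genes on the left are lowest in both PBZ arrays and all 5 on the right are highest there.

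The size of the change of MSRB6 moved little under the settings that can move it. Settings that change only the probe sets used, the model of the spread, the replicate block or a group not compared repeat the same estimate. Over 16 alternative settings the log2 fold change ran from -2.14 to -1.85 in PBZ against control, from 0.12 to 0.17 in GA against control and from 1.98 to 2.28 in GA against PBZ. Its rank moved more, because the constant added before the logarithm changes the size of dim genes' fold changes: the rank ran from 6 to 59 in PBZ against control and from 20 to 111 in GA against PBZ. In GA against control the rank ran from 2723 to 6614, and some settings ranked fewer probe sets.

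**Figure D5:**
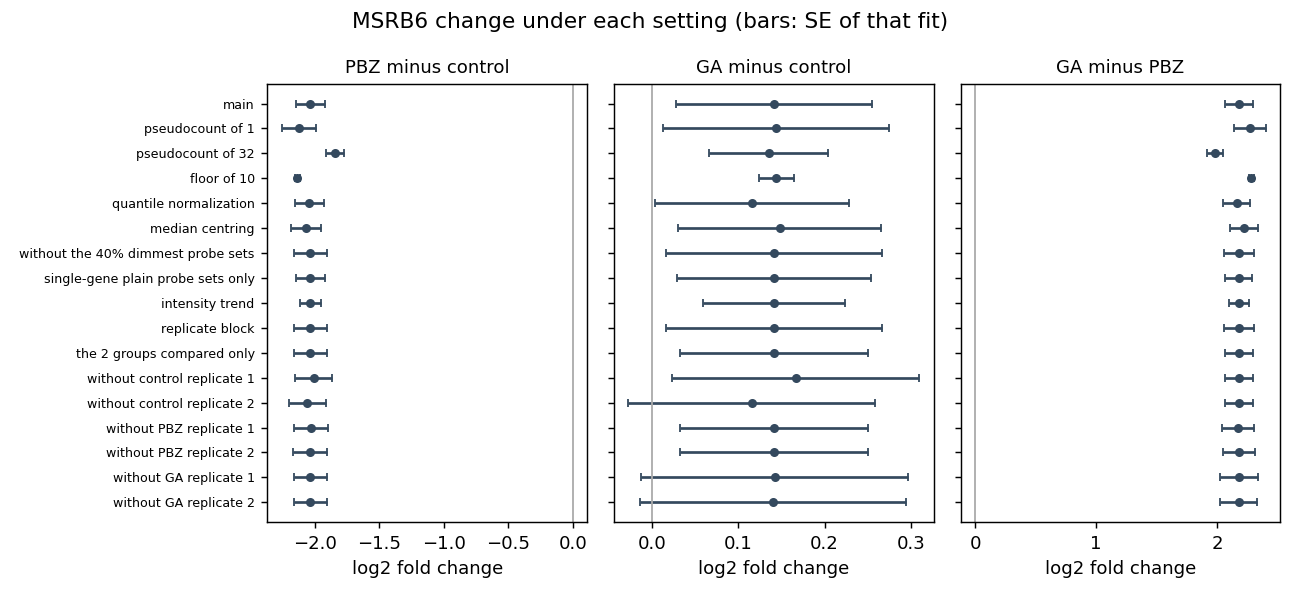
Log2 fold change of MSRB6 (points) with the SE of each fit (bars) under the setting used and 16 alternatives, 1 panel per comparison with its own axis and a grey line at 0. All points are below -1.8 in PBZ against control and above 1.9 in GA against PBZ, while those of GA against control lie between 0.12 and 0.17.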

How the data were processed

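The deposited table holds linear intensity values, 1 per probe set and array. The submitters' processing notes name RMA and affy, without versions. Since RMA returns log2 values and the table is linear, how it was made stays unstated in these sources. Trimmed by 2% at either end, each array averaged 100.01, which shows a scaling by the authors before deposit. From these, log2(intensity + 10) was computed; 26.8% to 29.4% of values per array lay under 10. The 64 control probe sets were left out. The platform annotation names 1 gene for 13513 probe sets, several for 503 and none for 8730; 13436 matched the RefSeq gene table (TAIR10.1), used for names and gene order only.

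A single limma model with 1 mean for each group used all 6 arrays (R 4.3.3, limma 3.58.1; 3 residual and 3.07 prior degrees of freedom), with two-sided tests and Benjamini-Hochberg adjustment across the 22746 probe sets. The fit was also run on simulated data with independent normal noise and changes planted in the PBZ group. That noise did not depend on intensity, so the run cannot show how the fit behaves for dim probe sets. The p-values measure the spread between samples labelled biological replicates; 2 arrays per group limit the precision.

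The gene, lists, added constant and naming rule were chosen with earlier results of these data known. The rule names MSRB6, all measured MSRB and MSRA genes, the measured neighbours, in each other list the members that pass or else the smallest p, the 10 nearest profiles and the 5 nearest reversed ones. The ranking neighbours BZIP61 and WRKY53 lie outside it and were added once their values had been seen. The model did not pair the samples by replicate number.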

Additional observations from a re-analysis of the deposited data

How the results depend on the processing

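MSRB6 kept its direction in all 3 comparisons under all 16 alternatives. Some of these could not move an estimate, as they change only the probe sets used, the model of the spread, the replicate block or a group not compared. In PBZ against control its log2 fold change was -2.13 with a pseudocount of 1, -1.85 with a pseudocount of 32, -2.14 with a floor of 10 and -2.07 after median centring. In GA against PBZ it was 2.27, 1.98, 2.28 and 2.22 in the same order, and in GA against control 0.12 after quantile normalization. The SE depended on the setting. In GA against control the log2 fold change was 0.14 both with a floor of 10 (SE 0.021) and with a pseudocount of 1 (SE 0.13). Without each array in turn the log2 fold change ran from -2.06 to -2.01 in PBZ against control, 0.12 to 0.17 in GA against control and 2.17 to 2.18 in GA against PBZ. Its rank was 59 in PBZ against control and 111 in GA against PBZ with a pseudocount of 1, and 6, 20 and, in GA against control, 3190 with a pseudocount of 32. In GA against control the rank was 6360 with a pseudocount of 1, 5858 after quantile normalization and 6614 without control replicate 2. Fewer probe sets were ranked without the 40% dimmest ones (2723 in GA against control) and with single-gene plain probe sets only (7, 2747 and 25). None of the other 3 MSRB probe sets passed under any alternative. Of the 28 listed genes, 1 passed in PBZ against control with a pseudocount of 32, without dim probe sets and when the variance prior followed intensity (the trend); in GA against PBZ 1 passed with a pseudocount of 32 and after median centring, and 2 without dim probe sets and with the trend. These were MSRA5 and, as the second, MGL. Of the 10 nearest profiles 6 were shared when Pearson correlation was used, 4 with a pseudocount of 1 and 8 with a pseudocount of 32; THI2.2 and GSTU26 were in all of these.

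The background count of passing probe sets moved most. In PBZ against control (117) it was 0 with a pseudocount of 1, 248 with 32, 548 without dim probe sets, 23 with single-gene plain probe sets, 333 with the trend and 4 with the compared groups only; it was 0 without either control array or either PBZ array and 4 without either GA array. In GA against control (0) it was 4 with the floor, 193 without dim probe sets and 51 with the trend. In GA against PBZ (675) it was 94 with a pseudocount of 1, 292 with the floor, 1349 without dim probe sets, 243 with single-gene plain probe sets, 1040 with the trend and 284 with the compared groups only; it was 284 without either control array, 37 without PBZ replicate 1, 24 without PBZ replicate 2 and 0 without either GA array. The cause was not tested.

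With the replicate number as a block the counts were 47, 1 and 391. The block is balanced over the groups, so the log2 fold changes of MSRB6 could not move from -2.04, 0.14 and 2.18 (SE 0.13). Same-numbered arrays of different groups had deviations that correlated across all probe sets at 0.0147, 0.0313 and -0.000766. No shift by number shared by most probe sets was seen, and a shift in a part of them was not tested. With 2 arrays a group these correlations cannot tell whether same-numbered samples were handled together.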
